A study of Mus musculus with 2 samples.

Results

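Tubulin, cytoplasmic dynein and dynactin genes were examined in cerebrum RNA of wild-type and lag mutant mice. Members were all genes whose symbol in the array annotation starts as an alpha-, beta-, gamma-, delta- or epsilon-tubulin, a gamma-tubulin complex component, a dynein chain (Dync or Dynl) or a dynactin subunit (Dctn), and which had at least 1 probe set paired with that gene alone. This gave 40 genes with 75 probe sets, of 18194 genes on the array. A further 6 genes that fit by name had only probe sets that the annotation pairs with several genes, and they carry no value of their own. The rule itself uses no measured value.

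The data were 2 Affymetrix mouse genome arrays, 1 from wild-type and 1 from lag mutant cerebrum, both at postnatal day 14 (P14) and with no treatment. The laggard (lag) mutation is a spontaneous recessive splice-site change in Kif14, a mitotic kinesin, which arose on a mixed inbred background and was later backcrossed to C57BL/6J; the strain of the array mice was not stated beyond this. How many mice gave each RNA sample was also not stated. With 1 array per genotype there is no estimate of the spread between mice, so no p-value is given and each fold describes these arrays only.

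Microtubules are hollow polymers of alpha- and beta-tubulin heterodimers, and mammals encode several near-identical isotypes of each. Gamma-tubulin and its complex components nucleate the polymer. Cytoplasmic dynein 1 is the motor that walks to the minus end and needs dynactin as its processivity factor, and dynein 2 drives retrograde transport inside cilia. In neurons this system carries cargo along axons and dendrites. In oligodendrocytes, the myelinating glia, microtubules run through the processes and carry myelin mRNA, among them that of Mbp, toward the sheath. Tubb3 is a classical marker of neurons, whereas Tubb4a is abundant in oligodendrocytes and is known from hypomyelinating leukodystrophy.

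Signals are MAS5 intensities, linear values per probe set that the authors scaled globally. Olfactory, vomeronasal and taste receptors, keratin-associated proteins and defensins, with 153 probe sets, served as genes silent in brain. The 95th percentile of their signals, 56.5 for the wild-type and 50.9 for the mutant, was used as background. Each gene is given by its brightest probe set over both arrays, and values below background were set to the background level. Of the 75 member probe sets, 51 were designed to match a single transcript and 24 were not. The brightest probe sets of Dctn1, Dynll2, Dynlrb1, Dynlt3, Tuba1a and Tubb2a, among others, are of the latter kind. What else they bind was not tested. Ratios are mutant over wild-type on the log2 scale. Of the 40 member genes, 39 lay above background on at least 1 array, and the exception was Tuba3b, an alpha-tubulin best known from testis, at 16.4 and 31.4 by the only probe set paired with it alone. Probe sets that the annotation pairs with Tuba3b and a further alpha-tubulin gene were above background, but cannot be given to either gene. Kif14 itself lay under background on both arrays, at 6.85 and 0.733, so its signal does not check the labels. Each probe set binds with its own efficiency, so signals served to sort genes into brightness classes but not to compare the level of a gene with that of another.

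The tubulin, dynein and dynactin genes differed little between the arrays. None of the 39 measured members was 1.5-fold lower in the mutant, and none was 1.5-fold higher. Across the 13693 measured genes of the array these shares were 3.51% for lower and 3.83% for higher, which would correspond to 1.4 and 1.5 of 39 genes. At 2-fold the members again numbered 0 in each direction, against 0.986% of all genes lower and 0.606% higher. A count of 0 therefore lies close to what the general shares give for so few genes. The median log2 ratio of the 39 members was 0.01, and that of all measured genes was also 0.01. In the mutant 19 members had a lower signal and 20 a higher one.

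The spread of the ratios across genes depends on brightness, so members were set beside genes of their own signal class. Of the 39, 23 were among the 4565 brightest measured genes, where the SD of the log2 ratio across genes was 0.27, and only 0.986% and 1.20% of genes were 1.5-fold lower and higher. A further 9 fell among the 4564 genes of middle signal (SD 0.32) and 7 among the 4564 dimmest (SD 0.44). Every one of the 39 lay inside the central 95% of the ratios of its own brightness class, and 33 lay within 1 SD of 0. Likewise 33 of 39 differed by less than 1.25-fold. Past 1.25-fold were Dynlt1f, lower in the mutant, and Dctn6, Dync1li1, Dynlt3, Tube1 and Tubg2, higher. The shares of all genes past 1.25-fold or within 1 SD were not counted, so these counts cannot be called particular to the members. Each SD also takes in strongly changed genes, with a lowest log2 ratio of -5.45 in the brightest class. The SDs and central ranges are yardsticks across genes and do not stand in for replicates.

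**Figure D1:**
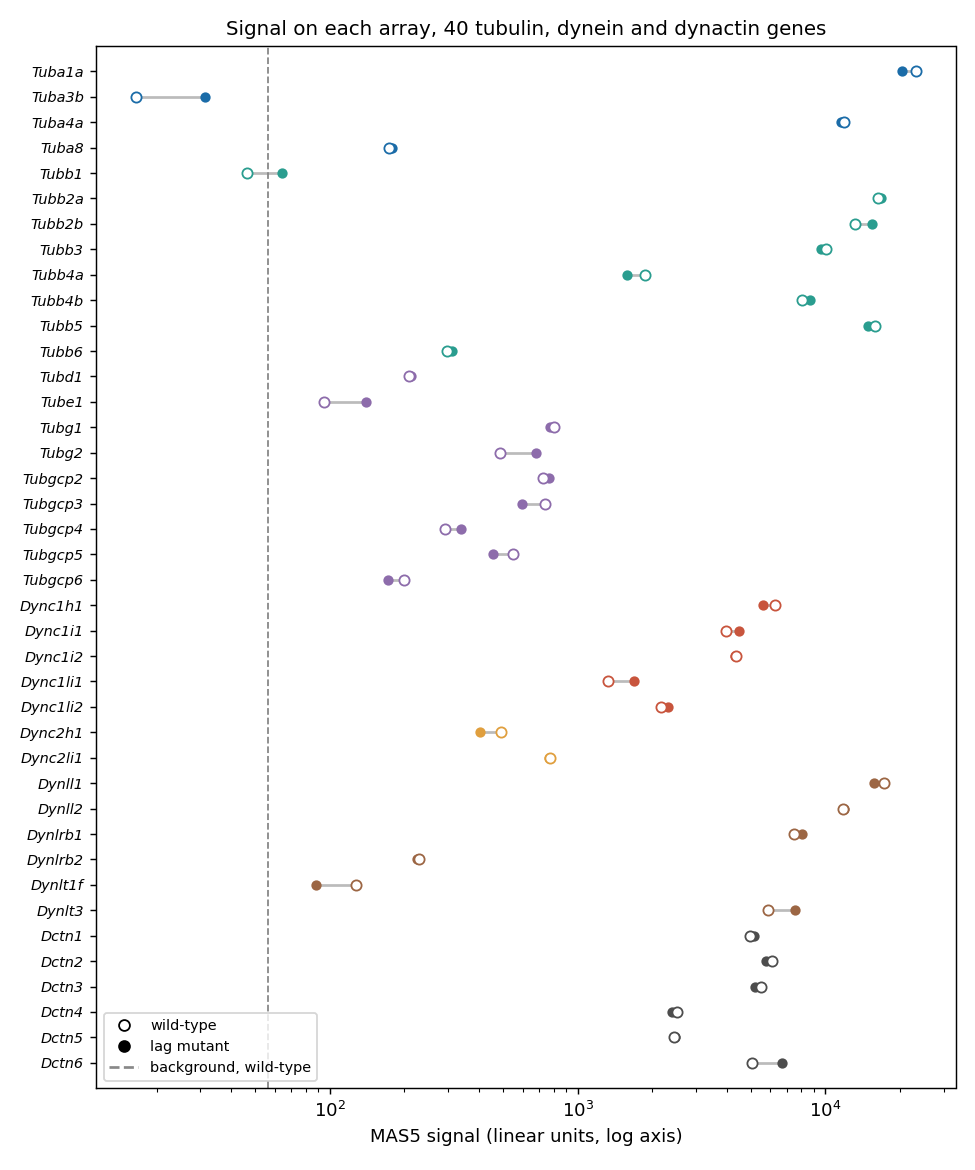
MAS5 signal (linear units on a log axis) of the 40 member genes, by the probe set of highest signal, with the wild-type as open and the lag mutant as filled circles, coloured by class (blue for alpha-tubulins, green for beta-tubulins, purple for gamma-, delta- and epsilon-tubulins and their complex, red for dynein 1, yellow for dynein 2, brown for light chains, black for dynactin); the dashed line is the wild-type background level of 56.5. The circles of a gene lie close together over the whole range, from Tubb1 (46.4 and 64.3) to Tuba1a (23319 and 20361), and Tuba3b lies under background on both arrays.

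The alpha-tubulins, which form heterodimers with beta-tubulin, gave a median log2 ratio of -0.04 over 3 measured genes. Tuba1a, the main alpha-tubulin of developing neurons, went from 23319 to 20361, 1.15-fold lower. This was close to the highest signal of any probe set on either array, 26117 and 23748, and the deposited table has no flag for saturated spots, so whether this probe set was saturated cannot be told. It is also of a kind open to cross-hybridisation, and no other probe set was paired with Tuba1a alone. The log2 ratio of Tuba1a was -0.20, but -0.02 with quantile normalization. Tuba8, an alpha-tubulin of restricted expression, was at 173 and 178. Tuba4a, an alpha-tubulin of mature brain, was at 11897 and 11540 by its brightest probe set. Its other probe sets did not move the same way. One went from 6272 to 7611, 1.21-fold higher, and the dimmest from 142 to 66.0, 2.14-fold lower. With values below background set to that level, this dim probe set was the only 1 of the 66 detected member probe sets that differed 2-fold. The second probe set of Tuba8, from 80.7 to 50.4 with the mutant signal just under background, was the only other past 1.5-fold, lower by at least 1.59-fold. The median of the alpha-tubulins depended on this choice: it was -0.29 when the probe sets of each gene were averaged, and 0.16, over 2 genes, with only probe sets designed to match a single transcript.

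The 8 beta-tubulins had a median log2 ratio of 0.05, and the 7 above background on both arrays ranged from -0.25 to 0.22. Tubb3, the neuronal isotype, went from 10061 to 9610, 1.05-fold lower. Tubb2a, abundant in neurons, was at 16345 and 16794, and at 534 and 478 by its other probe set. Only the dimmer of these was designed to match a single transcript, and it was lower in the mutant. Tubb2b, which is needed for neuronal migration in the cortex, was at 13201 and 15399, 1.17-fold higher, the highest ratio among these 7. The neuronal isotypes thus lay on either side of equal signal. Tubb4a, abundant in oligodendrocytes, was at 1876 and 1578, 1.19-fold lower, the lowest ratio among the beta-tubulins by their brightest probe sets. It was measured by a single probe set. Tubb5, found in most cells, was at 15868 and 14821 and, by its second probe set, at 3370 and 2820, lower by both. The log2 ratio of that second probe set, -0.257, was below the -0.250 of Tubb4a. Tubb4b, an isotype of most cells and of ciliary axonemes, was at 8079 and 8690, and a second probe set above background on both arrays went from 323 to 459. That second probe set is of a kind open to cross-hybridisation. A further pair of Tubb4b probe sets, also of that kind, was above background in the mutant only, at 83.5 and 52.7. Their deposited wild-type signals were 21.0 and 3.22. The dimmer of this pair has a log2 ratio of -0.10 once the wild-type signal is raised, although the deposited mutant signal was the higher. Tubb6, found mainly outside neurons, was at 298 and 310, and its second probe set at 145 and 134. Tubb1, the platelet isotype, went from 46.4, under background, to 64.3, higher by at least 1.14-fold.

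Tubulin isotypes of glia and neurons were then set side by side as ratios. The log2 ratio was -0.25 for Tubb4a and -0.07 for Tubb3, a difference of -0.18. Single ratios across the brightest genes had an SD of 0.27, which takes in strongly changed genes, and a median size of 0.11. The median SD between probe sets of the same gene was 0.19 over 5843 genes. Neither is a spread of differences between genes, so whether -0.18 is large was not tested. The isotypes of oligodendrocytes and other non-neuronal cells (Tubb4a and Tubb6) had a median of -0.10, those of neurons (Tuba1a, Tuba4a, Tubb2a, Tubb2b and Tubb3) a median of -0.04, and the isotypes of most cells (Tubb4b and Tubb5) a median of 0.00, against 0.01 for all measured genes. The difference between the medians of non-neuronal and neuronal isotypes was -0.05, and -0.18 with unique probe sets only, where the neuronal median was 0.08. The non-neuronal median joins genes on opposite sides of equal signal, Tubb4a at -0.25 and Tubb6 at 0.05. Which cells carried each isotype in this RNA was not tested. Of the isotypes of testis, platelets or gut Tubb1 alone was measured.

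The cell type markers give the scale of the other differences on these arrays. All 9 measured markers of oligodendrocytes and myelin were at least 2-fold lower in the mutant, and their summed signal went from 35122 to 2553. The median log2 ratio was -2.54 or lower, since 3 of the 9 were under background in the mutant and give bounds. Mbp, which encodes myelin basic protein, went from 18812 to 444. Tubb4a, at 1.19-fold lower, differed less than any of those markers, among which the smallest bound was that of Ermn, a cytoskeletal protein of myelinating oligodendrocytes, at least 3.18-fold lower. Of the 10 general neuron markers none differed 1.5-fold and the median was -0.07, with the synaptic gene Snap25 at 15349 and 16408. The immature neuron markers had a median of -0.08 over 7 genes, with Dcx, a microtubule-binding protein of migrating neurons, at 3403 and 2938. In this list 1 gene each was at least 1.5-fold lower and higher, both named after their values were seen. Igfbpl1 went from 186 to 58.0, near background in the mutant and 3.20-fold lower. Tbr1 went from 992 to 1639, 1.65-fold higher. Astrocyte markers had a median of -0.19 over 8 genes, with the glutamate transporter gene Slc1a2 at 13097 and 11696. The only astrocyte marker past 1.5-fold was the intermediate filament gene Gfap, higher in the mutant, from 156 to 274, which is named here after its value was seen. The median was 0.45 over 8 microglia markers and 0.16 over 10 ependymal and motile cilia markers, each with 1 gene at least 1.5-fold higher, and -0.22 over 7 endothelial and pericyte markers, with none past 1.5-fold. It was -1.30 over 6 midbrain and hindbrain markers, all lower in the mutant. Whether the pieces of tissue differed in their regions cannot be told apart from genotype here, and the part of these cell types in the tubulin, dynein and dynactin ratios was not tested. In whole tissue, fewer cells of a type and less RNA per cell cannot be told apart.

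**Figure D2:**
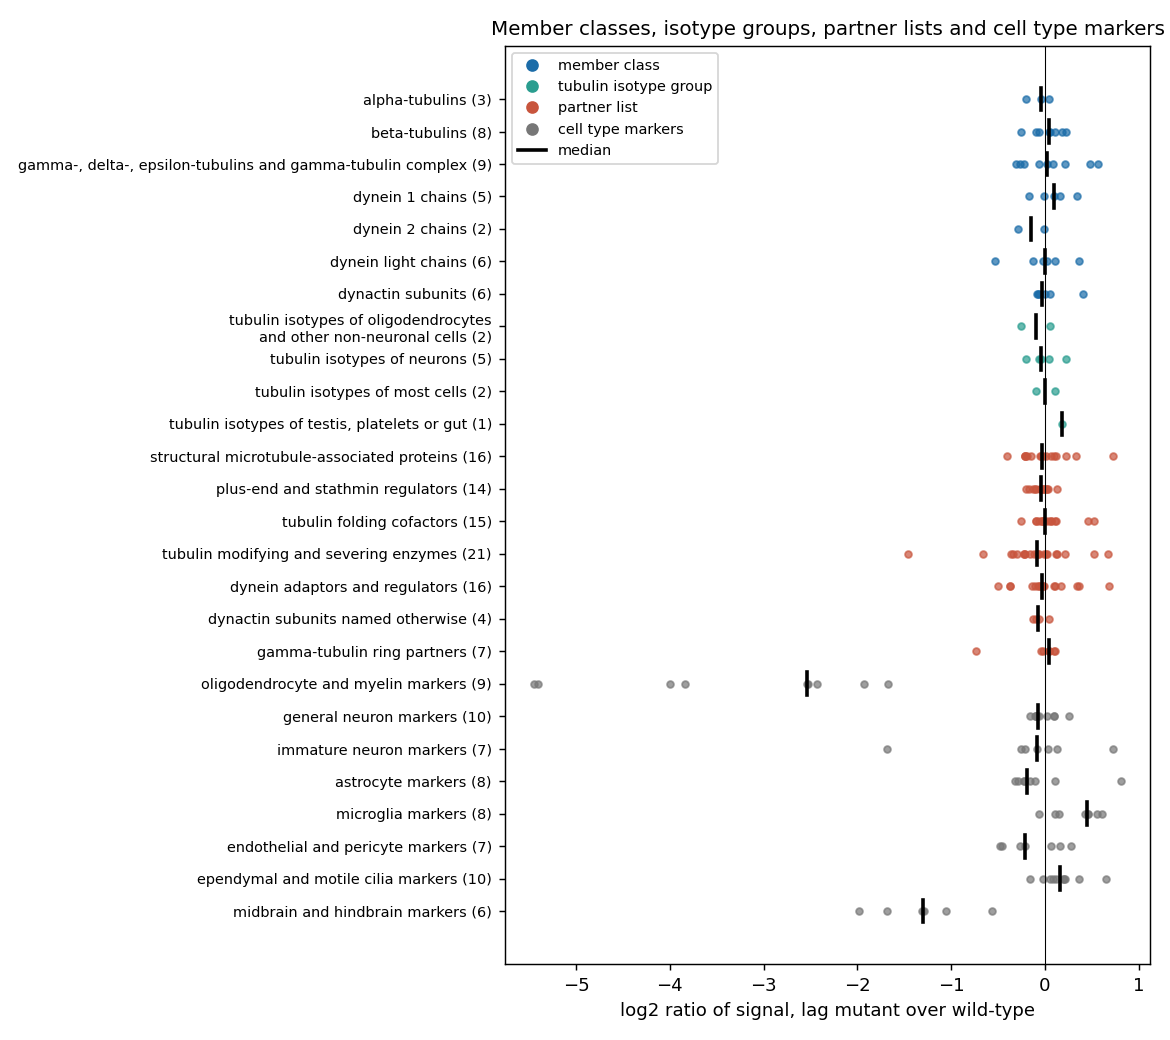
Mutant over wild-type signal as a log2 ratio for the classes of member genes (blue), tubulin isotype groups (green), lists of microtubule and dynein partners (red) and cell type markers (grey); each point is a gene above background, the number of genes is in brackets and the black bar is the median. Medians of the member classes lie between -0.15 and 0.10, and that of the oligodendrocyte and myelin markers, 3 of them bounds, is -2.54.

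By brightest probe sets, the class of gamma-tubulins and the nucleation complex, delta- and epsilon-tubulins included, held the widest ratios among the tubulins. Its 9 measured genes had a median log2 ratio of 0.02 and ranged from -0.31 to 0.57, the latter being the epsilon-tubulin Tube1. None was among the brightest genes (SD 0.27), unlike most alpha- and beta-tubulins, and ratios spread more widely at middle and low signal (SD 0.32 and 0.44). The part of brightness in this width was not tested. Tubg1, the general gamma-tubulin, was at 804 and 772. Tubg2, the gamma-tubulin enriched in brain, went from 486 to 678, 1.39-fold higher. Its other probe set was under background on both arrays, so the ratio rests on 1 probe set. Among the complex components, Tubgcp3 went from 742 to 597 (1.24-fold lower), Tubgcp5 from 548 to 456 (1.20-fold lower) and Tubgcp6 from 199.5 to 171 (1.17-fold lower). Tubgcp2 was at 725 and 768. Tubgcp4, from 291 to 338 by its brightest probe set, was at 249 and 248 by another and at 168 and 135 by the dimmest, so its probe sets spanned both directions. Tubd1, the delta-tubulin of centrioles, was at 209 and 212.

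Tube1, the epsilon-tubulin of centrioles, had the largest ratio of all members. Its signal went from 94.4 to 140, 1.49-fold higher, from a probe set that the manufacturer marks as open to cross-hybridisation. Another probe set of the gene went the other way, from 74.8 to 66.7. Averaged over its probe sets the log2 ratio was 0.20, and with a 99th percentile background, where its wild-type signal is raised, it was -0.16. Quantile normalization took it past 1.5-fold, to a log2 ratio of 0.66.

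The chains of the dynein 1 motor core were measured by 5 genes with a median log2 ratio of 0.10. Dync1h1, the heavy chain that carries the motor domain, was at 6289 and 5596, 1.12-fold lower. Of the intermediate chains, which link the motor to dynactin, Dync1i1, the neuronal form, was at 3990 and 4471 and Dync1i2, the general form, at 4346 and 4322. The light intermediate chains bind cargo adaptors. Of these Dync1li1 went from 1332 to 1694, 1.27-fold higher by its single probe set, and Dync1li2 from 2166 to 2315, or from 1281 to 1236 by its other probe set. On these arrays the ratios of the genes of this motor fell on either side of equal signal, and none differed by 1.5-fold. Of dynein 2, the motor of retrograde ciliary transport, the heavy chain gene Dync2h1 was at 491 and 403, 1.22-fold lower, and the light intermediate chain gene Dync2li1 at 772 and 769.

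The dynein light chains, small dimeric subunits of the cargo-binding tail, had a median log2 ratio of -0.00 over 6 genes. Dynll1, the abundant LC8 light chain that also serves many other proteins, was at 17174 and 15770, and all 4 of its probe sets had a lower mutant signal, by log2 ratios of -0.16 to -0.11. Dynll2, its close homologue, was at 11730 and 11881, and at 1959 and 1596 by its other probe set. Dynlrb1, a roadblock chain, was at 7449 and 8033. Dynlrb2, the roadblock chain of ciliated cells, was at 229 and 226, and the ependymal regulator Foxj1 was at 105 and 111. Dynlt3, a Tctex-type chain, went from 5861 to 7568, 1.29-fold higher, and its other probe sets went from 1561 to 2044, from 3878 to 4095 and from 5483 to 5795. All 4 were higher in the mutant, though by ratios of 0.08 for a pair of them and 0.37 and 0.39 for the rest. Dynlt1f, another Tctex-type chain, had the lowest ratio of all members, from 127 to 87.7, 1.45-fold lower. That dim probe set is open to cross-hybridisation, and the near-identical genes Dynlt1a, Dynlt1b and Dynlt1c share its sequence family, so the value cannot be assigned to this gene with certainty.

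Dynactin, the adaptor complex that activates dynein, was measured through 6 subunit genes with a median log2 ratio of -0.03. Dctn1, the large subunit that binds microtubules, was at 4964 and 5149, and at 1361 and 1229 by its other probe set. Dctn2, the dynamitin subunit, was at 6070 and 5755, and Dctn3 of the shoulder at 5501 and 5178. These subunits of the shoulder and arm differed by at most 1.11-fold. At the pointed end of the complex, Dctn4 was at 2522 and 2407, with 4 further probe sets above background. One of them was at 623 and 612, and the rest were higher in the mutant, from 589 to 645, from 110 to 139 and from 108 to 147. Dctn5 was at 2455 and 2464, and at 1516 and 1461 by its other probe set. Dctn6, a further pointed-end subunit, stood apart from the rest, from 5056 to 6700, 1.33-fold higher. Its second probe set went the same way, from 2371 to 2954. The difference was thus seen with 2 probe sets on bright signal, and both ratios, 0.41 and 0.32, stayed under 1.5-fold.

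**Figure D3:**
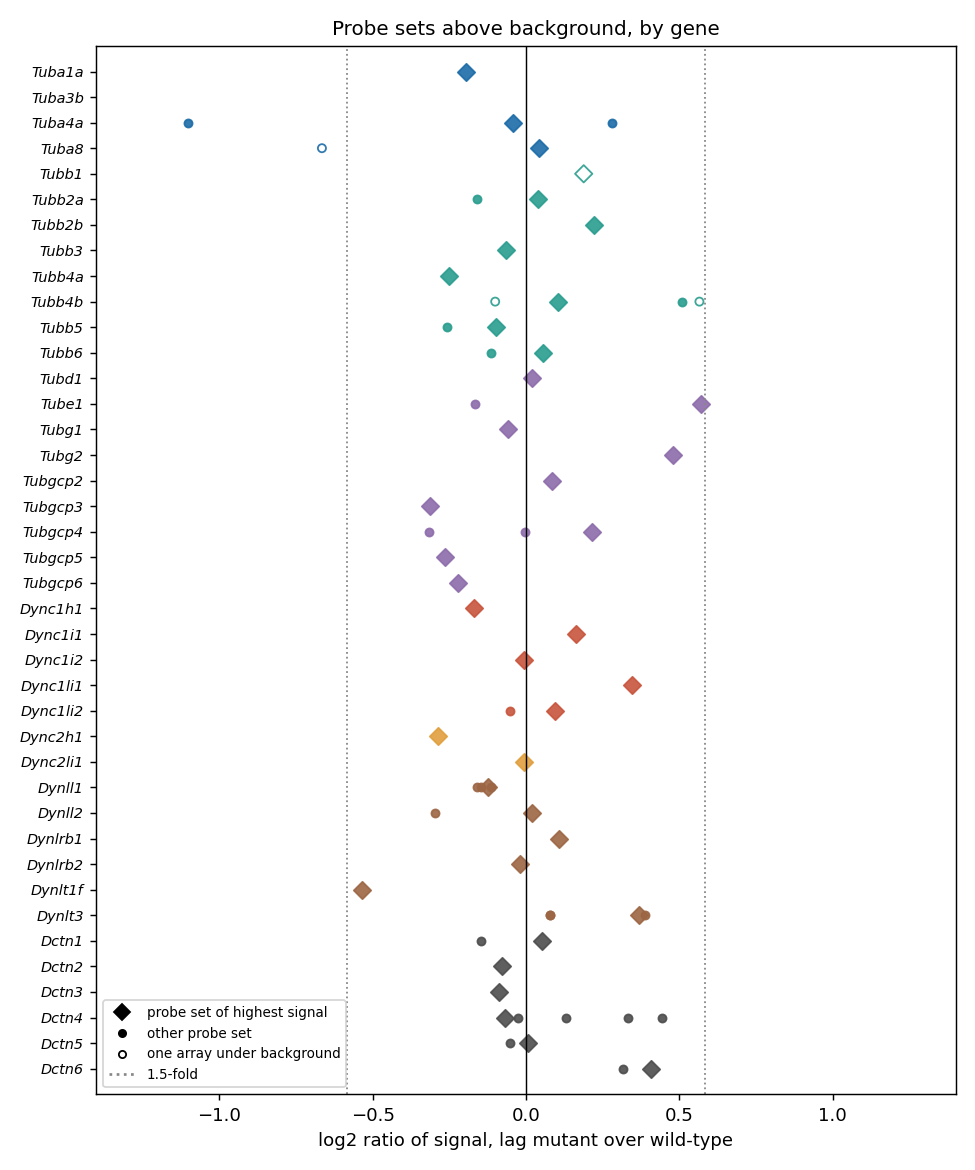
Mutant over wild-type signal as a log2 ratio for the 66 member probe sets detected on 1 or both arrays; diamonds are the probe set of highest signal of each gene, circles its other probe sets, open symbols those with 1 array under background, colours the classes in order from alpha-tubulins at the top to dynactin, and dotted lines mark 1.5-fold. Only a dim probe set of Tuba4a and a dim one of Tuba8 lie beyond the dotted lines, while all 4 probe sets of Dynlt3 and both of Dctn6 lie to the right of 0.

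Probe sets of a gene allowed a check within the arrays. Several detected probe sets were at hand for 16 member genes, and in 5 of them the deposited signals all differed in 1 direction: Dynll1 and Tubb5 lower in the mutant, and Dctn6, Dynlt3 and Tubb4b higher. Over all genes with 2 or more such probe sets this held for 44.8% of 6456. The single direction of Tubb4b rests in part on wild-type signals under background. Once those are raised to background, 1 of its probe sets has a log2 ratio of -0.10. Log2 ratios of a gene's probe sets had a median SD of 0.14 over the 15 members with at least 2 probe sets above background on both arrays, against 0.19 over all such genes. For comparison, the median size of the log2 ratio between the arrays was 0.11 over the 39 members and 0.16 over all measured genes. By brightness it was 0.11 over the 4565 brightest genes, which hold 23 of the members. It was 0.16 over the genes of middle signal and 0.24 over the dimmest. The SDs between probe sets were not split by brightness.

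A further 10 probe sets were paired with several genes of which at least 1 is a tubulin or dynein light chain, and no value can be given to any of those genes alone. Tuba1b, Tuba1c, Tuba3a, Dynlt1a, Dynlt1b and Dynlt1c had only probe sets of this kind. Of 6 such alpha-tubulin probe sets, 4 had a mutant signal at least 1.5-fold higher and none was 1.5-fold lower, where over the 621 detected probe sets with several genes the shares were 5.64% higher and 2.74% lower. Signals of the 4 went from 67.3 to 161, from 61.1 to 111, from 162 to 262 and from 712 to 1212. The wild-type signals of the first pair were near background, and 3 of the 4 were paired with the same predicted gene beside an alpha-tubulin, so they are not separate observations. The one at 61.1 and 111 was paired with Tuba1a beside that predicted gene. The brightest of the 6 went from 18868 to 16997 and the remaining one from 1915 to 2492. The single beta-tubulin probe set of this kind, paired with Tubb2b and Tubb2a-ps2, went from 6396 to 8926. The 3 of dynein light chains were lower in the mutant, by log2 ratios of -0.33 to -0.06. What these shared probe sets bind was not tested.

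Partners of microtubules and dynein were described from 7 lists holding 102 genes, of which 93 were measured. At 1.5-fold, 3 were lower (3.23%) and 3 higher (3.23%), near the shares over all genes, and the median log2 ratio was -0.03. Among 16 structural microtubule-associated proteins the median was -0.03, with the dendritic protein gene Map2 at 12717 and 13301 and Dclk1 at 7852 and 8426. Map4, the general microtubule-associated protein, was the exception, from 3321 to 5492, though its other bright probe sets were at 2763 and 2842 and at 2131 and 2142. Tppp, a tubulin polymerisation factor of oligodendrocytes named here after its value was seen, was at 2083 and 1794. None of 14 plus-end and stathmin regulators differed 1.5-fold, with a median of -0.04. Of these the tubulin-sequestering Stmn3 was at 23200 and 21326 and the end-binding gene Mapre2 at 20076 and 19611. None of 15 tubulin folding cofactors and chaperonin subunits did either, with a median of 0.00 and Cct6a at 10836 and 10687 and Cct2 at 7893 and 7577.

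The enzymes that modify or sever tubulin held the largest single difference. Sirt2, a deacetylase that acts on alpha-tubulin and is abundant in myelin, went from 3819 to 1384, 2.76-fold lower, the only partner gene past 2-fold. In the same list Ttll5, a glutamylase, went from 410 to 260, or from 303 to 274 by its other probe set, and the severing enzyme Fign from 365 to 580, with its other probe sets at 239 and 260 and at 76.7 and 84.4. The remaining 18 of 21 differed by less than 1.5-fold, with the deglutamylase gene Agtpbp1 at 4762 and 4092 and the severing enzyme gene Spast at 2913 and 2794. The median of the list was -0.08. Of 16 dynein adaptors and regulators only the dim Ninl, from 61.1 to 98.0, was past 1.5-fold, and the list's median was -0.03. Pafah1b1 (Lis1), a dynein regulator whose loss causes lissencephaly, was at 6675 and 8466, and its binding partner Ndel1 at 3726 and 4017. The dynactin subunits with other names were all within 1.5-fold (4 genes, median -0.08), with the capping protein genes Capza2 at 8217 and 8461 and Capzb at 6134 and 5621. Of 7 partners of the gamma-tubulin ring, the centrosomal gene Cdk5rap2 was at 96.0 and 57.8, and the others, with Mzt1 at 4093 and 4206 and Akap9 at 2076 and 2045, differed by less than 1.5-fold. The median of this list was 0.04.

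**Figure D4:**
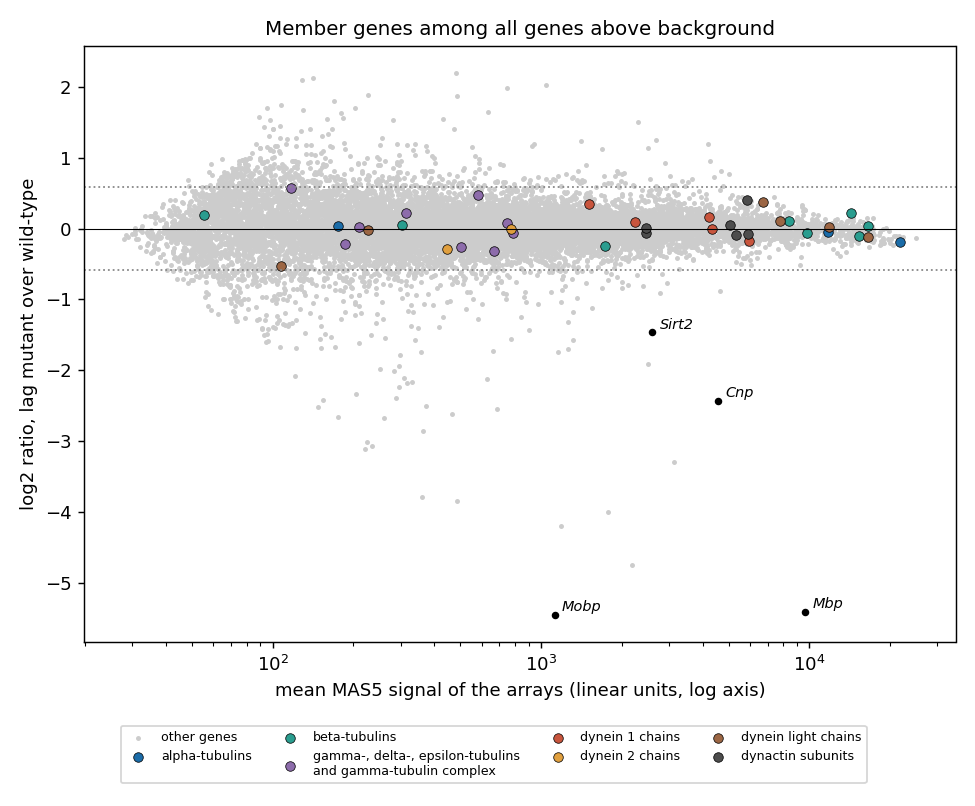
Mutant over wild-type signal as a log2 ratio against the mean MAS5 signal of the arrays (log axis) for all 13693 genes above background; the 39 member genes are coloured by class, other genes are grey, dotted lines mark 1.5-fold and 4 non-member genes are labelled in black. All members lie between the dotted lines, while Sirt2, Cnp, Mobp and Mbp lie far below them.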

How the data were processed

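RNA of P14 cerebrum, 1 wild-type and 1 lag mutant sample, was hybridised to 1 array each. The authors obtained the deposited intensities, on a linear scale, from Microarray Suite 5.0 (MAS5 in the submitters' processing notes) with its defaults and global scaling. Detection calls were not used here. The platform annotation gave 34958 of 45101 probe sets a single gene, 932 several genes and 9211 no gene. Genes were named from the 34958 alone, of which 34754 matched the RefSeq table of GRCm38.p6 by gene identifier for current symbols. Background, gene value and log2 ratio are described with the results. Folds of 1.5 and 2 were counted, and members were also described at 1.25. No test was run, since each genotype is 1 sample, and the arrays limit the precision. The members and lists were chosen with earlier results of these data known. All member genes were named, and of the partner lists those at least 1.5-fold different and the 2 of highest mean signal. Of the markers a few defining genes and some past 1.5-fold were named. Calculations were run on simulated data, made from the wild-type array with added noise and known changes in bright genes only. This checks the arithmetic, and not the spread between mice or the ratios of dim genes. Alternatives changed the probe set per gene, the background level, the normalization and the fold. Python 3.11.15, numpy 2.4.6, pandas 2.3.3 and matplotlib 3.10.9 were used.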

Additional observations from a re-analysis of the deposited data

How the results depend on the processing

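No paired analysis was possible because the wild-type and the mutant are single samples. A value was taken as moved when it shifted by more than the median SD between probe sets of a gene, 0.19 on the log2 scale, or, for a count, by more than 1.5 times. By that measure 138 recomputed counts, class medians and isotype differences stayed where they were and 9 moved. Some could not move, so the tally is not a measure of robustness. Tubb4a and Tubb3 have 1 probe set each, far above background. A count of 0 at 2-fold stays 0 at 4-fold. The median of the alpha-tubulins, over 3 genes, moved to -0.29 when the probe sets of each gene were averaged, to -0.67 when the lowest ratio of each gene was taken and to 0.16 with unique probe sets only. With the lowest ratios 1 member gene was at least 2-fold lower (Tuba4a) and 2 at least 1.5-fold lower (Tuba4a and Tuba8). Of members at least 1.5-fold higher there was 1 with no background level (Tuba3b, under background otherwise) and 1 with quantile normalization (Tube1). The group of testis, platelets or gut, which is Tubb1 alone, moved to 0.47 for a 90th percentile background and, with Tuba3b added, to 0.70 with none. The difference of Tubb4a and Tubb3 ranged from -0.22 under quantile normalization to -0.18. That of the non-neuronal and neuronal isotype medians ranged from -0.18 with unique probe sets only, where the neuronal median turned from -0.04 to 0.08, to -0.02 with the lowest ratios. Of single member genes, 281 ratios across the settings stayed within 0.19 and 21 did not, and Dynlt3 was at 0.08 with unique probe sets only. Genes with 1 detected probe set could not move when only the choice of probe set changed. For Tube1 the negative ratio at the 99th percentile comes from raising its wild-type signal to a higher level than the mutant one. Ratios of dim members depend on the background level, and whether the brightest were saturated was not tested.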
